A study of Mus musculus with 6 samples.

Results

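The epicardium is the sheet of mesothelial cells that covers the heart. Its state was followed through 10 genes of 25006 in the count tables: the transcription factor genes Wt1, Tbx18 and Bnc1, the retinoic acid enzyme gene Aldh1a2, the genes of the secreted proteins Sema3d and Rspo1, and the genes of the surface proteins Upk1b, Upk3b, Msln and Lrrn4. The genes were listed by name as epicardial or mesothelial markers, and each identifier was matched to a symbol of GENCODE M21, an annotation of the mm10 build (GRCm38). RNA was sequenced from the dissected heart ventricles of mouse embryos of the NMRI strain at embryonic day 17.5, in 3 control libraries and 3 libraries labelled null. The series asked which pathways of the developing heart depend on its lymphatic vessels.

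Controls carry a wild-type genotype label. Null-labelled embryos carry VecadcreERT2, a Cre recombinase that tamoxifen activates and that the endothelial VE-cadherin promoter drives, together with floxed Prox1 (Prox1f/f). The protocol lists floxed mothers and floxed, Cre-bearing fathers for all samples, a mating that gives floxed offspring only, so the labels leave unsettled which Prox1 allele controls carry. It also lists tamoxifen for all samples, given to the mothers at E13.5 and E14.5 at 5 mg per 40 g of body weight. This Cre acts in endothelium, and no agent in the labels is aimed at the epicardium. Whether each library is a separate embryo is not said in the labels; the p-values therefore reflect variation among these samples alone, which may be technical.

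During development the epicardium arises from the proepicardium, spreads over the myocardium, and sheds cells that enter the heart wall and become fibroblasts and mural cells of the coronary vessels. It also signals to the muscle below through retinoic acid and secreted growth factors. WT1 and TBX18 are transcription factors that mark the layer from early on, while mesothelin and uroplakins mark its mature, epithelial face. Mesothelium of the pericardium, lung and liver shares most of these markers.

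Libraries held 35195544 to 44330594 counts, at which 3 counts equal 0.0677 to 0.0852 CPM (counts scaled to a common library size). The targeted gene was not lower under the null label: Prox1 had 6549, 5164 and 5265 counts in the control group against 6581, 5809 and 6924 (log2 fold change 0.15, adjusted p = 0.0331). Whole-gene counts include exons that a deletion may leave. They also cover the whole ventricle, while this Cre acts in endothelium, so they cannot show whether Prox1 was lost in those cells. Esr1, part of which this Cre fusion carries, stood at 9 to 19 counts without the null label and 244 to 298 with it. Every direction therefore rests on the labels, and Prox1 loss and Cre cannot be told apart. Null 1 and null 3 carried 1798 and 5738 counts of Xist beside 9218 and 9952 counts of Y-linked genes, a pairing seen in no other library. Of all 14815 genes tested, 5.41% were called changed at an adjusted p under 0.05, 2.43% higher and 2.98% lower, and 26.6% had no overlap between the groups. These percentages are the background against which the epicardial genes are read. Leaving out null 1 and null 3 leaves null 2 as the only null-labelled library, so only effect sizes are given for that setting.

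All 10 epicardial genes were detected in every library, and all 10 passed the filter on low counts. Promoter sequence was matched in the RefSeq table for 7 of them, all but Wt1, Upk1b and Msln. The stretch shown is the 250 bases before the start site, in build GRCm38.p6. Printed 5′ to 3′ are Rspo1, the one gene of the 7 whose groups did not overlap in level, Bnc1, the least expressed of the 10, and the surface protein genes Upk3b and Lrrn4. Capitals mark the motifs described after them, of which Rspo1 holds none.
Rspo1 (chr4:124986180-124986429, plus strand): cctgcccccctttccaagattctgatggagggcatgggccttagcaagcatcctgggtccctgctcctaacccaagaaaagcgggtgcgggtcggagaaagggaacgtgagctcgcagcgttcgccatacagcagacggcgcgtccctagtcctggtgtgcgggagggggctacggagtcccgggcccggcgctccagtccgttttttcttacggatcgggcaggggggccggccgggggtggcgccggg
Bnc1 (chr7:81992300-81992549, minus strand): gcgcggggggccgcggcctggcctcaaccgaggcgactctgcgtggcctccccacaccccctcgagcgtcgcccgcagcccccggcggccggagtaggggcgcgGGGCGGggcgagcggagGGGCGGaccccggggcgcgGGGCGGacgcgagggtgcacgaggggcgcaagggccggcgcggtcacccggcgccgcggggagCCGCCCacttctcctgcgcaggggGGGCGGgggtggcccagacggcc
Upk3b (chr5:136038246-136038495, plus strand): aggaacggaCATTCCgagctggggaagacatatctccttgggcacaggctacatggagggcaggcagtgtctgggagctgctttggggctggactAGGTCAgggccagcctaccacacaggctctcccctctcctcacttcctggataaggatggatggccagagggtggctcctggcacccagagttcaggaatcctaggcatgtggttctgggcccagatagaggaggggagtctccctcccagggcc
Lrrn4 (chr2:132880863-132881112, minus strand): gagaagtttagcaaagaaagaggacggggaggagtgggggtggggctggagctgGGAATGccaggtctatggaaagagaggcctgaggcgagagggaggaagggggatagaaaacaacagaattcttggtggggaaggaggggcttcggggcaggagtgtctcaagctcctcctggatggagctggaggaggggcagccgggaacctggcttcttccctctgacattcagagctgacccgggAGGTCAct

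The promoters differed in base composition. Those of Aldh1a2, Bnc1, Rspo1 and Tbx18 were dense in CpG, with 40, 39, 22 and 15 CpG dinucleotides. Upk3b held 2, Sema3d 4 and Lrrn4 5, against a median of 6 over all 32851 promoters of the table. GC content ran from 46.8% in Sema3d to 83.6% in Bnc1, with an overall median of 52.4%. The 4 motifs were searched on both strands, and no match overlapped another. The GC box GGGCGG was found in Bnc1, 5 times, and in none of the other 6, while 32.7% of all promoters hold it. GGAATG, the core bound by TEAD factors, and AGGTCA, a core bound by nuclear receptors, were each found once in Upk3b and once in Lrrn4 and in no other of the 7; 12.6% and 14.02% of all promoters hold them. TATAAA was found in 0 of 7, against 12.4% of all promoters. These are matches of letters in a short window, not binding sites measured in these hearts.

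Levels between genes were compared as CPM per kilobase of merged exons. In controls Tbx18 was highest at 14.3 ± 1.25 (SD, n = 3), followed by Aldh1a2 at 13.04 ± 1.35, Msln at 11.8 ± 2.35 and Upk3b at 10.8 ± 2.27. These 4 were not separated from their neighbours, since the libraries of each overlapped those of the next. A clear step followed to Wt1 at 4.87 ± 0.694, then Lrrn4 at 4.28 ± 0.989, Upk1b at 4.03 ± 0.653 and Sema3d at 3.37 ± 0.568, which again overlapped one with the next. Rspo1, at 2.14 ± 0.506, and Bnc1, at 0.795 ± 0.432, each lay below all control libraries of the gene above. Tbx18 stood above 78.1% of all tested genes in controls on this scale and Bnc1 above 19.5%. In null-labelled libraries the order was the same for the top 2 and for Wt1, Lrrn4 and Bnc1, while Upk1b went from place 7 to place 9 at 2.53 ± 0.416, below Rspo1 at 3.35 ± 0.243.

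**Figure D1:**
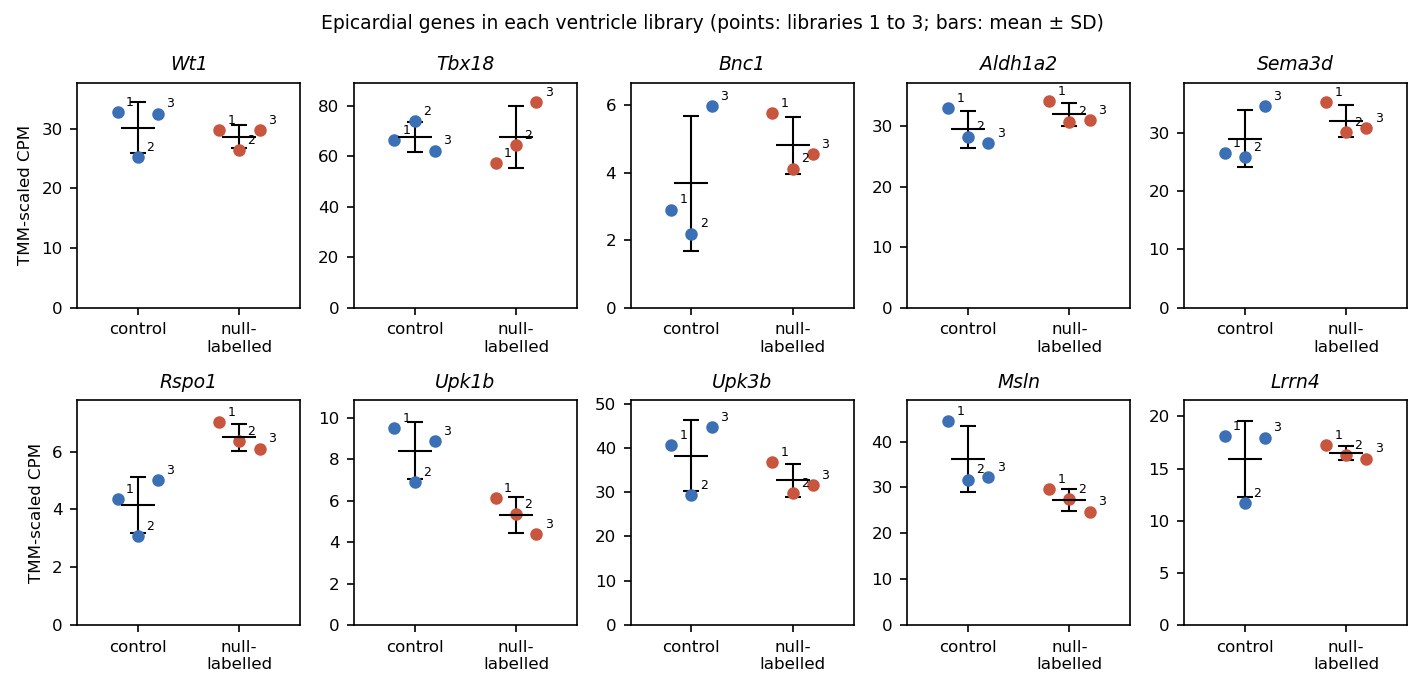
Each panel gives 1 epicardial gene in CPM, scaled by the trimmed mean of M values, with control libraries in blue and null-labelled libraries in red, numbered 1 to 3, and bars for mean ± SD. The groups do not overlap for Upk1b and Msln (lower in null-labelled) or Rspo1 (higher), and overlap for the other 7 genes.

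Of the 10 genes, 1 was called changed, Upk1b, which was lower in null-labelled ventricles; 5.41% of all tested genes were called. The median log2 fold change of the 10 was 0.0262, against −0.00396 over all genes tested, with 6 genes above 0 and 4 below. The median size of change was 0.187 against 0.0895 over all genes. The spread between libraries beyond counting error, as estimated by edgeR, was also larger, with medians of 13.1% against 7.16%. Groups did not overlap for 3 of 10, Upk1b, Msln and Rspo1, beside 26.6% of all tested genes. Sums over the 10 genes, which weight the abundant ones, were 279, 238 and 272 CPM across controls, against 259, 241 and 260 CPM across the null-labelled group. The ranges of these sums overlapped.

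The transcription factor genes did not pass the test. Wt1 (chromosome 2, 105126529 to 105173616), which encodes a zinc finger factor needed for the epicardial layer to shed cells, had 32.8, 25.2 and 32.5 CPM across controls, against 29.7, 26.5 and 29.8 CPM across the null-labelled group. Control 2 was the lowest of the 6 and the other controls the highest, so the null-labelled libraries lay within the control range. Its log2 fold change was −0.08 ± 0.10 (SE) with a 95% interval from −0.32 to 0.17 and adjusted p = 0.75 in edgeR. Tbx18 (chromosome 9, 87702800 to 87731260), which encodes a T-box repressor of the proepicardium and sinus horn, had 66.4, 74.0 and 62.3 CPM across controls, against 57.2, 64.4 and 81.4 CPM across the null-labelled group. Null 1 was lowest and null 3 highest, and the groups overlapped fully. The log2 fold change was 0.00 ± 0.14, with an interval from −0.34 to 0.35 and adjusted p = 0.995.

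Bnc1 (chromosome 7, 81966672 to 81992292), which encodes the zinc finger protein basonuclin of epithelial cells, was the most variable of the 10. It had 128, 79 and 211 counts in controls, or 2.91, 2.19 and 5.97 CPM, and 5.77, 4.13 and 4.55 CPM in null-labelled libraries. Control 3 was highest and the other controls lowest. With all libraries the log2 fold change was 0.39 ± 0.37 (interval −0.51 to 1.29, adjusted p = 0.626). Without control 3 it was 0.91 and was called higher (adjusted p = 0.0294). Control 3 also stood apart in liver transcripts: the 4 liver markers summed to 492 counts there, against 21 and 34 for controls 1 and 2 and 74 to 188 under the null label. It was also the one control with high Xist (49485 counts, against 28 and 29) and low Y-linked counts (175, against 11143 and 8735), as null 2 was in its group (50586 and 190). With a term for sex the Bnc1 log2 fold change was 0.48 (adjusted p = 0.528). The part of the liver transcripts in the Bnc1 values was not tested.

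Aldh1a2 (chromosome 9, 71215789 to 71296243) encodes the dehydrogenase that makes retinoic acid in the epicardium. Its values were 33.0, 28.3 and 27.3 CPM across controls, against 34.1, 30.8 and 31.0 CPM across the null-labelled group. The groups overlapped through control 1. The log2 fold change of 0.11 ± 0.08 did not pass (interval −0.06 to 0.29, adjusted p = 0.454), and this was among the narrowest intervals of the 10 genes.

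The 2 secreted factors had higher means in null-labelled libraries. Rspo1 (chromosome 4, 124986430 to 125009099) encodes R-spondin 1, which raises Wnt receptor levels at the cell surface. Its counts were 192, 111 and 177 against 282, 231 and 252 under the null label, that is 4.36, 3.08 and 5.01 CPM against 7.01, 6.35 and 6.10 CPM. All null-labelled libraries lay above all controls. The log2 fold change was 0.64 ± 0.16, a fold of 1.56, with an interval from 0.27 to 1.01, but adjusted p = 0.0544 missed the threshold. It passed in 3 of 16 alternatives: without control 3 (adjusted p = 0.024), without a filter on low counts (0.028) and in DESeq2 (0.0118). The other omissions of a single library gave 0.0956 to 0.168, and a term for sex gave 0.0625.

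Sema3d (chromosome 5, 12383385 to 12588948) encodes a class 3 semaphorin, a guidance cue for vessels and nerves. It had 26.5, 25.8 and 34.6 CPM across controls, against 35.2, 30.2 and 30.8 CPM across the null-labelled group. Control 3 lay apart from the other controls and among the null-labelled libraries. The log2 fold change was 0.15 ± 0.12 (interval −0.14 to 0.44, adjusted p = 0.566). Without control 3 it was 0.29, with adjusted p = 0.0496, and with a term for sex 0.16 (adjusted p = 0.536).

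Among the surface proteins, Upk1b (chromosome 16, 38773184 to 38800328) was called. It encodes uroplakin 1B, a tetraspanin first known from the bladder lining and also made by mesothelium. Controls held 418, 248 and 314 counts, against 247, 194 and 182 across the null-labelled group, that is 9.499, 6.89 and 8.89 CPM against 6.14, 5.34 and 4.41 CPM. Every control lay above every null-labelled library. The level was 1.59-fold lower, a log2 fold change of −0.67 ± 0.15 (interval −1.02 to −0.33), with adjusted p = 0.0381 in edgeR. In bulk tissue, fewer cells of a type and less RNA per cell cannot be told apart. Leaving out 1 library ended the call for control 1 (adjusted p = 0.0977), control 3 (0.0772), null 2 (0.127) and null 3 (0.115). The call also ended in limma-voom (0.0544) and with a term for sex (0.0633). With null 2 as the only null-labelled library the log2 fold change was −0.66.

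Msln (chromosome 17, 25748613 to 25754378) encodes mesothelin, the glycoprotein anchored on mesothelial cells. It had 44.4, 31.7 and 32.3 CPM across controls, against 29.6, 27.4 and 24.7 CPM across the null-labelled group. The groups did not overlap, and control 1 lay well above the other 5 libraries. The log2 fold change was −0.41 ± 0.15 (interval −0.77 to −0.05, adjusted p = 0.195). Without control 1 it was −0.23. DESeq2 called it lower (adjusted p = 0.0186).

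Upk3b and Lrrn4 did not pass. Upk3b (chromosome 5, 136038496 to 136046487), which encodes a uroplakin of mesothelium, had 40.6, 29.3 and 44.7 CPM across controls, against 36.8, 29.7 and 31.5 CPM across the null-labelled group (log2 fold change −0.22 ± 0.18, interval −0.66 to 0.21, adjusted p = 0.552). Lrrn4 (chromosome 2, 132868305 to 132880891), which encodes a leucine-rich repeat membrane protein, had 18.1, 11.7 and 18.0 CPM across controls, against 17.3, 16.3 and 15.95 CPM across the null-labelled group. For Lrrn4 control 2 was lowest and the other controls highest, as for Wt1. Its log2 fold change was 0.05 ± 0.16 (interval −0.34 to 0.44, adjusted p = 0.907).

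**Figure D2:**
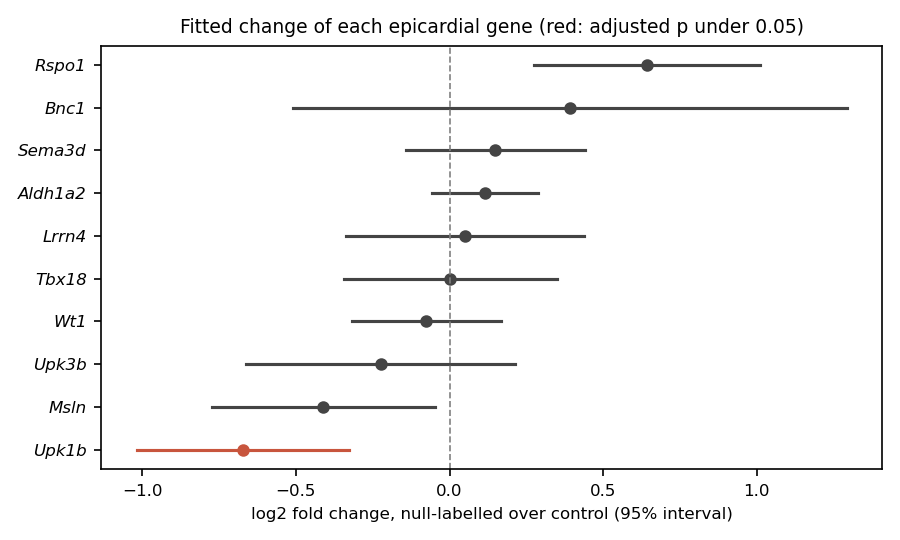
Points give the log2 fold change of each epicardial gene, null-labelled over control, and lines the 95% interval of the edgeR fit. Upk1b, at −0.67, is the gene in red, called at an adjusted p under 0.05; the intervals of Msln and Rspo1 also lie off 0, but both missed the adjusted threshold, and the Bnc1 interval is the widest.

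Control libraries differed from each other across most of the 10 genes. Control 2 held the lowest of 6 values for 6 genes, Wt1, Bnc1, Sema3d, Upk3b, Lrrn4 and Rspo1, and was above its group mean for 1 of 10, Tbx18. Control 1 and control 3 were each above it for 7 of 10, with control 1 highest of all 6 libraries for 4 genes. Among all tested genes, at most 51.2% lay above the group mean in any library. Null 1 was above its group mean for 9 of 10, all but Tbx18, and null 2 and null 3 for 2 each. Tbx18 was thus highest among controls in the library where Wt1 was lowest.

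Spread within groups was accordingly uneven. The coefficient of variation was larger in controls than in null-labelled libraries for 8 of the 10 genes, with medians of 18.4% and 8.82%; over all tested genes the medians were 6.01% and 5.02%, and 58.5% of genes varied more in controls. Lrrn4 went from 23.1% to 4.14%, whereas Tbx18 went the other way, from 8.73% to 18.4%. The spread between libraries beyond counting error, estimated by edgeR as the biological coefficient of variation, had a median of 13.1% over the 10 genes and 7.16% over all genes.

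**Figure D3:**
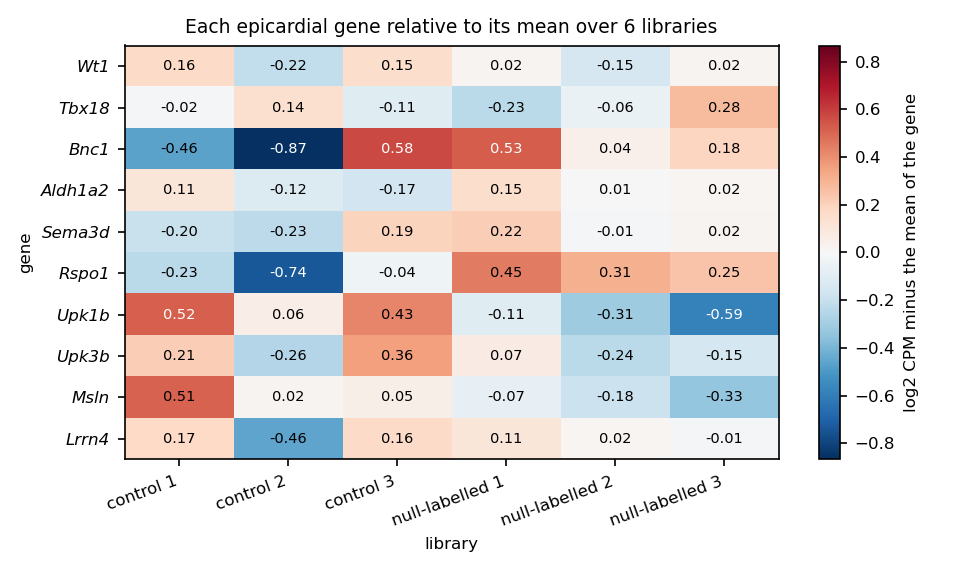
Each cell gives log2 CPM minus the mean of that gene over the 6 libraries, with rows for the epicardial genes and columns for libraries. Control 2 is low in most rows (−0.22 for Wt1, −0.46 for Lrrn4, −0.87 for Bnc1) and high for Tbx18 (0.14), while the Upk1b and Rspo1 rows split by group in opposite directions.

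Because control 2 was low for most of the 10 genes, each was also expressed as counts per 100 counts of Wt1 in the same library, a measure chosen after the values were seen and free of library scaling. Upk1b then had 29.0, 27.3 and 27.3 across controls, against 20.7, 20.2 and 14.8 across the null-labelled group, a ratio of means of 0.665. The coefficient of variation among controls was 3.44%, against 16.2% in CPM. Counting error at 248 to 418 Upk1b counts is larger than 3.44%. The closeness of these 3 values therefore does not measure how tightly Upk1b follows Wt1. The coefficient also fell for Upk3b (to 8.62% from 20.9%), Lrrn4 (to 9.88% from 23.1%) and Rspo1 (to 11.8% from 23.6%). It fell less for Msln, Sema3d and Bnc1 (to 46.1% from 54.4% for Bnc1). For Tbx18 it rose to 24.4% from 8.73%, and for Aldh1a2 to 14.4% from 10.4%. Rspo1 had 13.3, 12.2 and 15.4 across controls, against 23.6, 24.0 and 20.5 across the null-labelled group, a ratio of 1.66. For Upk1b and Rspo1 the groups did not overlap, with an exact two-sided permutation p = 0.1, the smallest that 3 libraries against 3 can give.

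Of the 9 genes set against Wt1, Upk1b and Rspo1 were the 2 whose groups did not overlap. The share of all genes without overlap was not computed on this scale. In CPM it was 26.6%, so 2 of 9 is not read as a result about these genes. Msln had 135, 126 and 99.2 across controls, against 99.6, 104 and 82.9 across the null-labelled group, which overlapped, and the p values of the other 7 genes ran from 0.2 to 0.9 (exact permutation tests). With the summed counts of the other 9 genes as denominator the ratios were 0.649 for Upk1b and 1.65 for Rspo1, again without overlap. With Tbx18, which did not follow the rest across libraries, they were 0.645 and 1.58 and the groups overlapped (exact permutation p = 0.2 each).

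**Figure D4:**
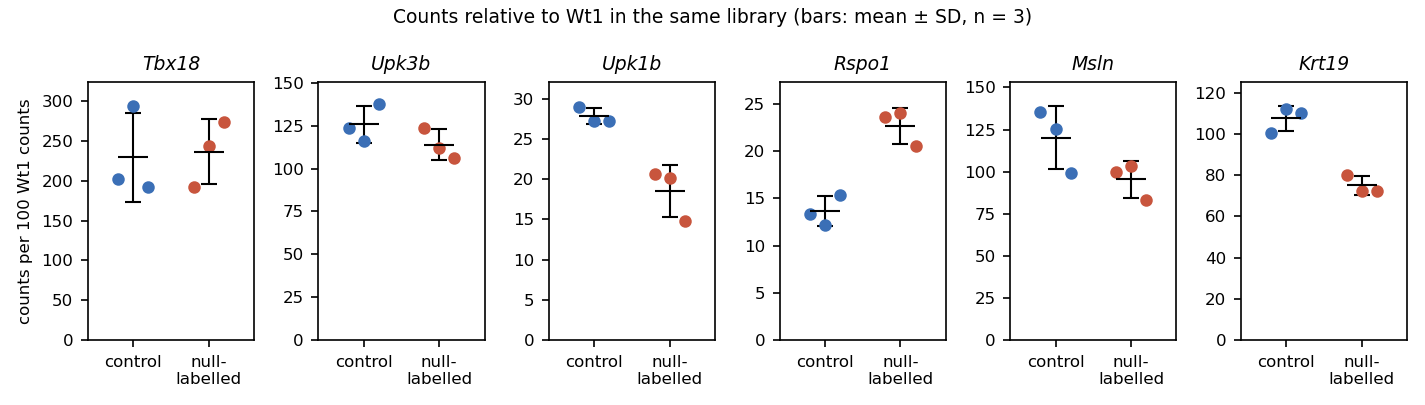
Counts of 5 epicardial genes and the keratin gene Krt19 are given per 100 counts of Wt1 in the same library, with bars for mean ± SD (n = 3). The groups stand apart for Upk1b (27.9 ± 0.958 against 18.5 ± 3.25), Rspo1 (13.6 ± 1.61 against 22.7 ± 1.92) and Krt19 (107 ± 6.04 against 74.9 ± 4.39), and overlap for Tbx18, Upk3b and Msln.

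Of 24 other mesothelial markers tested, 4 fell, 1 rose and 19 did not pass, with a median log2 fold change of −0.09, where 5.41% of all tested genes were called. Groups did not overlap for 9 of the 24, where 26.6% of all tested genes had none. The genes that fell were Dmkn, which encodes the secreted epithelial protein dermokine (1.58 ± 0.507 against 0.529 ± 0.0687 CPM, log2 fold change −1.59), Anxa8, an annexin gene (−1.53), Krt19, a keratin gene of simple epithelia (−0.59), and Podxl (−0.19). Podxl, named after its value was seen, encodes podocalyxin, which endothelium also makes. Cldn1, which encodes a tight junction claudin, rose from 0.897 ± 0.147 to 1.88 ± 0.142 CPM (log2 fold change 1.07). Counts were low for the largest of these changes. Controls held 43 to 95 counts of Dmkn, 49 to 85 of Anxa8 and 32 to 35 of Cldn1. Null-labelled libraries held 19 to 22, 14 to 27 and 69 to 82. Adjusted p ranged from 0.0148 for Dmkn to 0.0291 for Podxl in edgeR.

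Markers of the same layer that did not pass included Muc16, which encodes a large mucin of mesothelium (log2 fold change −0.11, adjusted p = 0.813), and Gpm6a, a membrane protein gene (0.02, adjusted p = 0.972). Others that did not pass had groups without overlap. Krt7 (−0.51, adjusted p = 0.0688) and Krt8 (−0.96, adjusted p = 0.11) were lower. Ildr2 (0.36, adjusted p = 0.0646) and Ezr (0.12, adjusted p = 0.221) were higher. DESeq2 called 8 of this list, and 1087 of all genes where edgeR called 801. In edgeR the number called was 1 without null 2, 0 without null 3, 3 without null 1, 4 without control 1 and 6 without control 3. Over all genes these omissions called 258, 277, 385, 574 and 942, in the same order. Without null 3 the adjusted p was 0.0583 for Dmkn, 0.0565 for Anxa8, 0.0824 for Krt19, 0.113 for Podxl and 0.0693 for Cldn1. The log2 fold changes were then −1.56, −1.27, −0.59, −0.18 and 1.03, in the same order.

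Per 100 counts of Wt1, Krt19 had 101, 112 and 110 across controls, against 80.02, 72.5 and 72.4 across the null-labelled group. Dmkn had 6.58, 5.40 and 3.74 against 1.59, 2.29 and 1.71, and Anxa8 5.89, 5.40 and 4.35 against 2.26, 2.39 and 1.14. These 3 genes were taken from those called lower, so their lower ratio restates that choice; among the 10 epicardial genes, Upk3b and Msln overlapped on this scale.

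**Figure D5:**
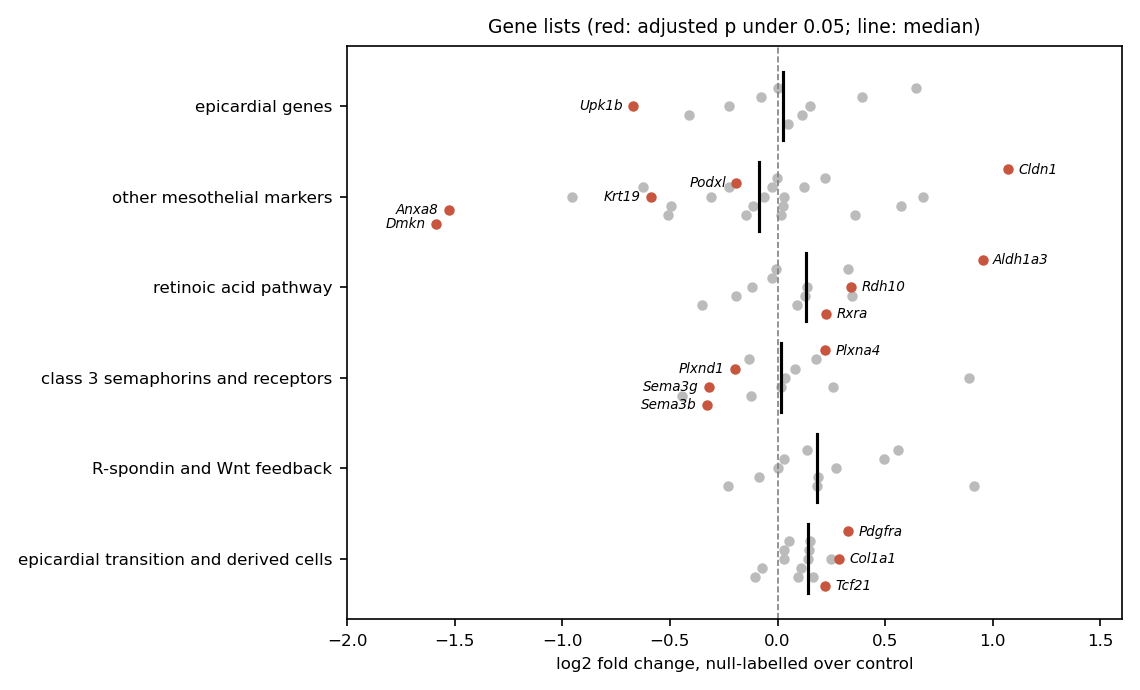
Each point is a tested gene, placed by its log2 fold change (null-labelled over control) in the row of its list, red and named where the adjusted p was under 0.05, with a black line at the list median. The epicardial genes have 1 call, Upk1b; the other mesothelial markers hold 4 lower calls and Cldn1 (1.07) as the higher one; the 3 calls drawn for the retinoic acid list all lie above 0, and 1 gene of that list is not drawn.

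Retinoic acid is made from retinol in 2 steps and acts through nuclear receptors. Of 18 listed genes around Aldh1a2, 14 were tested, 4 rose, 0 fell and 10 did not pass, with a median log2 fold change of 0.13. Over all tested genes 2.43% rose and 2.98% fell. Groups did not overlap for 6 of the 14, beside 26.6% of all tested genes. Aldh1a3, which encodes another retinaldehyde dehydrogenase, rose from 1.133 ± 0.126 to 2.19 ± 0.191 CPM (log2 fold change 0.95 ± 0.18, adjusted p = 0.0191). Rdh10, which encodes the retinol dehydrogenase of the step before, rose by 0.34 and the receptor gene Rxra by 0.23 on the log2 scale. The call of Rdh10 ended with a term for sex (adjusted p = 0.0512) and in 5 of the 6 omissions of a single library, all but that of control 1. That of Aldh1a3 ended without any of the null-labelled libraries (0.0519 to 0.0727). The number called was 1 without null 1 or null 3, 2 without control 2 or null 2, and 3 without control 1 or control 3. Over all genes single omissions called 258 to 942, against 801 with all libraries. Rxra kept its call in all 6 omissions, with adjusted p up to 0.0455. With null 2 as the only null-labelled library its log2 fold change was 0.19.

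Around Rspo1, 11 of 13 listed R-spondin and Wnt feedback genes were tested and 0 passed in edgeR, in DESeq2 or in limma-voom, while 4 of 11 had an unadjusted p under 0.05, beside 3033 of all 14815 genes. Of the 11, 9 lay above 0, beside 7226 of 14815, and the median log2 fold change was 0.18. Rspo2, another R-spondin gene, had the smallest p, with 0.478 ± 0.173 CPM under control and 0.900 ± 0.0481 CPM under null labels (log2 fold change 0.91, adjusted p = 0.107). Axin2, a feedback inhibitor and common readout of Wnt signalling, differed by 0.49 in log2 (adjusted p = 0.156), and Lgr4, a receptor gene for R-spondins, by 0.18 (adjusted p = 0.19). The last 2 were named after their values were seen.

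Around Sema3d, 13 genes of class 3 semaphorins and their receptors were tested. Of these 1 rose, 3 fell and 9 did not pass, with a median log2 fold change of 0.02. Of all tested genes 5.41% were called. Groups did not overlap for 9 of the 13, beside 26.6% of all tested genes. Plxna4, a plexin receptor gene, rose by 0.22. Plxnd1, the plexin receptor gene of endothelium, fell by 0.20, Sema3b fell by 0.33 and Sema3g, a semaphorin gene of arterial endothelium, fell by 0.32 on the log2 scale. Adjusted p ranged from 0.0132 to 0.0283 in edgeR. The number called was 0 without null 3, 1 without null 2, 2 without control 1 and 3 without control 2 or null 1. Over all genes single omissions called 258 to 942, against 801 with all libraries.

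Of 4 other uroplakin genes, 1 passed the filter, Upk1a (log2 fold change −0.02, adjusted p = 0.9746). Upk2, Upk3a and Upk3bl, the last of them a close relative of Upk3b, had at most 3 counts in any library.

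The list of epicardial transition and derived cells covers what the layer sheds. Of 15 genes tested, 3 rose, 0 fell and 12 did not pass, with a median log2 fold change of 0.14. Over all tested genes 2.43% rose and 2.98% fell. Groups did not overlap for 6 of the 15, beside 26.6% of all tested genes. Pdgfra, a receptor gene of fibroblasts and their precursors, rose by 0.33, the collagen gene Col1a1 by 0.29, and Tcf21, a fibroblast lineage factor, by 0.22. Snai1, Snai2 and Twist1, which encode factors that drive the epithelial to mesenchymal transition, had log2 fold changes of 0.03, 0.05 and 0.11 with adjusted p from 0.808 to 0.903. Zeb1 and Zeb2, which encode further drivers of that transition, had 0.10 (adjusted p = 0.148, groups without overlap) and 0.15 (adjusted p = 0.195), so none of these 5 passed. The number called was 0 without null 2, 1 without control 2, null 1 or null 3 and 2 without control 1. Over all genes single omissions called 258 to 942, against 801 with all libraries.

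Markers of neighbouring tissue were measured beside these results. The 6 ventricular myocyte markers summed to 38998 to 42836 CPM across controls and 40845 to 41693 CPM under the null label. Myh7, the most abundant of them, differed by 0.04 in log2 (adjusted p = 0.647). Of these 6, 1 rose, Hey2 (log2 fold change 0.22), where 2.43% of all tested genes rose. The Hey2 call ended without null 2 or null 3 (adjusted p of 0.0532 and 0.0517). Atrial markers summed to 1204 to 1618 CPM across controls and 725 to 1233 CPM under the null label, and these ranges overlapped. Such a sum weights the abundant markers. Of the 9 atrial markers, 6 had a log2 fold change above 0 and 3 below, beside 7226 of all 14815 genes above 0. The most abundant, Nppa, the gene of atrial natriuretic peptide, which the fetal ventricle also expresses, stood at 704 ± 44.2 CPM in the control group and 277 ± 102 CPM under the null label, without overlap, and missed the threshold (log2 fold change −1.35, adjusted p = 0.107). Of the 9 atrial markers 1 was called, Stard10 (log2 fold change 0.37), where 5.41% of all tested genes were called. The Stard10 call ended in each omission of a single library except control 2. DESeq2, limma-voom and the replicate block each called 2. Over all genes they called 1087, 667 and 570, where edgeR without a block called 801. The part of the atrial markers in the epicardial values was not tested.

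Lung markers were near 0 in 5 libraries, with 2 to 16 counts summed over 5 genes, but summed to 201 counts in null 2, of which Sftpc gave 140. Lung sums were 0.0455 to 0.142 CPM across controls and 0.363 to 5.53 CPM under the null label, without overlap. Liver sums were 0.477 to 13.9 CPM across controls and 2.04 to 4.55 CPM under the null label, and Alb gave 322 of the 492 counts in control 3. Thymus markers summed to 6 to 10 counts, of which Rag1 gave 3 to 9, with the defining marker Foxn1 at 0 in all 6 libraries. Mesothelium of lung and liver expresses epicardial genes too, and its part in these values was not tested. Without null 2 the log2 fold changes were −0.68 for Upk1b and 0.66 for Rspo1, and without control 3 they were −0.64 and 0.79.

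Genes most like Wt1 over the 6 libraries were ranked by the root mean square difference of log2 CPM, each gene centred on its own mean, among 13161 other genes that averaged 1 CPM or more. Rassf8 was nearest (0.0437), followed by Clec1b (0.0488), Tpst2 (0.049), Srp54b (0.0498) and P2ry1 (0.0518). For the mean profile of the 10 genes the nearest were Col13a1 (0.0222), Pvr (0.0302), Sdc4 (0.0326), P2ry1 (0.0405) and Pde4a (0.0498). The mean profile was lowest in control 2 (−0.26) and highest in control 3 (0.16).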

How the data were processed

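Each library came as 1 file of raw counts for Ensembl genes, as deposited by the authors, with no scaling. The submitters' processing notes name build mm10, cutadapt 1.13, STAR, HTSeq 0.6.1p1 and DESeq2, with no roles; annotation release and strand setting: not given in the sources used here. Exons of Tbx18 and Bnc1 overlap opposite-strand genes that are not used here. All 13 mitochondrial genes stood at 0. Of 25006 identifiers 24991 matched GENCODE M21; the other 15 took at most 0.00212% of a library's counts.

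From these counts, R 4.3.3 and edgeR 4.0.16 were used with filterByExpr, TMM scaling and the robust quasi-likelihood F test, null-labelled against control, two-sided, with Benjamini-Hochberg adjustment over all genes tested. Unless another tool is named, adjusted p-values come from it. Alternatives were other scalings and filters, DESeq2 1.42.0, limma-voom (limma 3.58.1), each library left out, a replicate term, a sex term set from summed Y-linked counts, and a threshold of 0.1. Intervals cover the spread between libraries. Code was tested on simulated data.

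The genes and lists were chosen with earlier results of these data known. Genes named are the 10, label checks, up to 4 called genes per list (1 gene of the retinoic acid list is counted but not reported here; the one of smallest p where none was called), the most abundant marker of each other tissue and the 5 nearest profiles; others are said to be chosen after their values were seen. Podxl, Foxn1, Muc16, Gpm6a, Krt7, Krt8, Ildr2, Ezr, Snai1, Snai2, Twist1, Zeb1 and Zeb2 were also chosen so.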

Additional observations from a re-analysis of the deposited data

How the results depend on the processing

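The number of the 10 genes called, 1 with all libraries, was 2 without a filter on low counts and 2 at a threshold of 0.1. It was 3 in DESeq2 (Upk1b, Msln and Rspo1), and 0 in limma-voom or with a sex term. Leaving out single libraries gave 0 to 3. The count over all genes, 801, became 258 to 942 without single libraries (402 without control 2, 385 without null 1, 258 without null 2, 277 without null 3), 52 without null 1 and null 3, and 1430 at a threshold of 0.1. The median of the 10 genes stayed between −0.0303 and 0.0484 in 16 alternatives, and Upk1b stayed below 0 and Rspo1 above 0 in all 16.

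Deviations of same-numbered libraries correlated at −0.0643, −0.0467 and −0.121 across genes, and those of other pairs at −0.029 to 0.0857. No pairing by replicate number was seen, but a correlation over all genes cannot exclude one that moves few genes. With replicate number as a block 2 of the 10 genes were called, Upk1b (adjusted p = 0.0476) and Msln (adjusted p = 0.0389), and 570 of all genes. Among the 10 genes, depth limits Bnc1, Rspo1 and Upk1b most, with 79 to 418 counts per library. Outside them, Dmkn, Anxa8 and Cldn1 held 14 to 95.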
